A study of Mus musculus with 2 samples.

Results

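Lyve1+Timd4- adipose tissue macrophages (ATMs) are ATMs that carry transcripts of *Lyve1* and *Folr2*, no detected transcript of *Timd4*, and few transcripts of *Lyz1*, a gene of macrophages that recently came from monocytes. They were chosen here from the counts of unique molecular identifiers (UMIs), each of which stands for 1 captured RNA molecule. A cell was kept with 200 to 3500 detected genes and at most 10% mitochondrial UMIs. A kept cell was a member with at least 1 *Lyve1* UMI, at least 1 *Folr2* UMI, 0 *Timd4* UMIs and fewer than 10 *Lyz1* UMIs. This gave 1019 members of 4385 kept cells, 758 of 2364 in the control diet (CD) library and 261 of 2021 in the high fat diet (HFD) library. The values of these 4 genes chose the members, so their levels are given only as a description.

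Cells came from the epididymal adipose tissue of male C57/BL6 mice of 8 to 12 weeks, either unchallenged on CD or fed a HFD overnight. Tissue was digested with enzymes and CD45+Lin-Ly6Clow/-F4/80+ cells were sorted by flow cytometry, so Ly6C-high monocytes and cells of other lineages lay outside the gate. Cells of 3 mice were pooled into 1 droplet-based single-cell RNA library per diet. Each diet therefore had 1 library and no replicate, no test between diets was possible, and every interval below is a 95% interval for counting error only. As deposited, the 4459 CD barcodes summed to 15003119 UMIs and the 3163 HFD barcodes to 9164686 UMIs, and 14 barcode sequences were found in both libraries.

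Lyve1 is a receptor for hyaluronan, a sugar polymer of the tissue matrix, and is also known from lymphatic endothelium. Macrophages that carry it sit along blood vessels in many organs, take up material by endocytosis, and depend little on blood monocytes for their upkeep. Folr2 binds folate, Fcna is a ficolin that recognises sugars on microbes, and Cbr2 is a carbonyl reductase. Timd4 is a receptor for phosphatidylserine, the lipid that marks dying cells, and divides resident macrophages into subsets.

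*Fcna* and *Cbr2* are markers of the label that the rule did not use. Members were chosen with earlier results of these data known, so the levels of both genes are a description and not a check. Levels are given in CPM, the summed UMIs of a gene per 1000000 UMIs of the same cells. *Fcna* (ENSMUSG00000026938, GRCm38 chromosome 2, 25624666 to 25628030, minus strand) stood at 909 CPM (876 to 944) in CD members and at 282 CPM (272 to 293) in the other kept CD cells. In the HFD library the levels were 1057 CPM (982 to 1137) and 164 CPM (155 to 174). *Cbr2* (ENSMUSG00000025150, chromosome 11, 120729489 to 120732114, minus strand) stood at 891 CPM against 308 CPM on CD and at 246 CPM against 50.5 CPM on HFD. Members were thus above the pooled other kept cells for both markers in both libraries, which does not set them apart from the classes nearest to them. All 6 general macrophage markers (*Adgre1*, *Cd68*, *Fcgr1*, *Csf1r*, *Itgam* and *Ptprc*) were detected, with at least 1 of their UMIs in 99.6% of CD and 96.6% of HFD members.

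Markers of other cell types were low among members. The lymphatic endothelial markers *Prox1*, *Flt4*, *Mmrn1* and *Reln*, of interest because that endothelium also carries *Lyve1*, gave 1 UMI of *Prox1* in each library and 0 UMIs of the other three. Blood endothelial markers summed to 9.24 CPM in CD and 13.1 CPM in HFD members, peritoneal macrophage markers to 4.29 and 2.91 CPM, stromal markers to 9.90 and 7.28 CPM, and adipocyte markers to 13.5 and 11.7 CPM. Markers of B cells summed to 9.24 and 1.46 CPM, of T or NK cells to 0.660 and 1.46 CPM, of neutrophils to 13.9 and 8.74 CPM, of eosinophils to 0.330 and 0 CPM, and of dendritic cells to 5.28 and 7.28 CPM, while mast cell and mesothelial markers were at 0. The markers of red blood cells were the highest of these lists, at 68.0 and 29.1 CPM, with *Hbb-bs* as the most abundant gene.

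The promoters of the 2 markers outside the rule are shown because these genes were higher in members than in the pooled other kept cells without having chosen them, although Timd4+ counterparts, which differ from members by the rule in *Timd4* alone, had them as high or higher. The sequences run from 250 bases before to 50 bases after the gene start, 5′ to 3′ on the strand of the gene, as given by RefSeq on GRCm38.p6. Capitals mark the letters TGCTGAC on either strand, a half-site of the Maf family of transcription factors, to which *Maf* belongs. These letters occur in 4.67% of 32851 promoters of the same length, and a match is a description of the sequence, not of binding. They were absent from the promoters of *Cd209f* and *Ccl8*, which were also 2-fold higher in members in both libraries. The listed promoters of the rule gene *Folr2* lacked them too.
Fcna (chr2:25627925-25628224, minus strand): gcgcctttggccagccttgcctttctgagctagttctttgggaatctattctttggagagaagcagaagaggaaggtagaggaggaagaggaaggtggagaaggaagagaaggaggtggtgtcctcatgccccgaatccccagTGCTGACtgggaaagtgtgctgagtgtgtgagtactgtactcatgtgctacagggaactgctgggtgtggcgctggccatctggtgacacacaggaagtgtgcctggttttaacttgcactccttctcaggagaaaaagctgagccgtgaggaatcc
Cbr2 (chr11:120731972-120732271, minus strand): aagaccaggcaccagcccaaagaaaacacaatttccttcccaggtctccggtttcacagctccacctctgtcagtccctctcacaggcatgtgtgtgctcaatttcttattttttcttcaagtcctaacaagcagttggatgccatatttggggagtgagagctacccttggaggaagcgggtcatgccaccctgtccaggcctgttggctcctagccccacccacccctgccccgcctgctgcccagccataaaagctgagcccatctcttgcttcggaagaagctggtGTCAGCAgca

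Members made up 32.1% of kept CD cells (30.2 to 34.0%) and 12.9% of kept HFD cells (11.5 to 14.5%), which is a difference of -19.2 points of percent (-21.5 to -16.7). A rule on detected UMIs depends on depth, and HFD cells were shallower, with a median of 2261 UMIs per member against 3675 on CD. With each cell thinned to 1000 UMIs, the rule held in 20.1% of the 2312 CD cells of that depth and in 8.04% of the 1754 HFD cells, a difference of -12.1 points (-14.1 to -9.98). The lower share on HFD was thus present at equal depth, with 1 pooled library behind each value. Thinning also let in cells that *Timd4* alone had left out at full depth. Of these, 105 of 262 CD and 7 of 24 HFD cells still showed a *Timd4* UMI at 1000 UMIs. The limit of 10 *Lyz1* UMIs stayed the same. The part of both in the thinned shares was not tested. Of the barcodes that the quality limits removed, 298 CD and 43 HFD barcodes also met the UMI rule.

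Many members lay close to the thresholds. A single *Lyve1* UMI carried 243 CD members (32.1%) and 133 HFD members (51.0%), while 356 and 63 had 3 or more. A single *Folr2* UMI carried 47 and 66 members. On the *Lyz1* side, 341 CD and 106 HFD members had 0 UMIs, 9 and 2 had 8 or 9, and 6 and 1 cells were left out by 10 or 11 *Lyz1* UMIs alone. *Timd4* alone left out 263 CD and 25 HFD cells, of which 177 and 21 had exactly 1 *Timd4* UMI. In a member of median depth, 1 UMI stood for 272 CPM on CD and for 442 CPM on HFD, so the same rule set a higher floor on the level of *Lyve1* in HFD cells.

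Members were shallower than the other kept cells of their library and richer in mitochondrial RNA. The other kept cells had a median of 5031.5 UMIs on CD and 3047 on HFD. Mitochondrial UMIs had a median share of 4.96% in CD members against 3.62% in the others, and of 4.80% against 3.45% on HFD. Ribosomal protein genes gave 11.4% of the UMIs of CD members and 10.3% of those of HFD members, below the 15.9% of the other HFD cells. The nuclear RNA *Malat1* gave 3.21% of UMIs in CD members and 5.08% in HFD members. These measures moved with the comparisons that follow, and their part in them was not tested.

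Against all other kept cells of their own library, members were high in genes of the resident macrophage program and in scavenger and endocytic genes. Genes of recently arrived monocytes and most tested cytokines were low in members. In the CD library 363 of 9077 genes with at least 50 UMIs were 2-fold or more higher in members (4%) and 458 were lower (5.05%). In the HFD library 702 of 8146 genes were higher (8.62%) and 515 lower (6.32%). This balance turned under several alternatives. There were 471 higher and 659 lower HFD genes with ratios centred on the median gene, and 352 and 588 with each cell weighted equally. Without the richest cell of each gene they were 543 and 743, and with at least 2 *Lyve1* UMIs 764 and 779. With the rule at 1000 UMIs per cell they were 284 and 476, and in cells of 2000 to 5000 UMIs 161 and 226. Among cells of 2000 to 5000 UMIs, a range that leaves out many cells rich in *Lyz1* UMIs, 15 of 6419 CD genes (0.234%) and 161 of 4488 HFD genes (3.59%) were 2-fold higher in members. The median ratio of all genes was itself above 0, at 0.11 on the log2 scale on CD and 0.15 on HFD, and list medians are to be read against it.

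The genes with the highest mean ratio over the libraries, among 140 that were 2-fold higher in both, included *Cd209f*, *Cd209d* and *Cd209g*, C-type lectin genes on chromosome 8 that code for receptors of sugars on microbes. *Cd209f* (4102787 to 4105835) stood at 1504 CPM in CD members and 564 CPM in the other CD cells, and at 715 against 93.7 CPM on HFD, log2 ratios of 1.42 and 2.93. The neighbouring *Cd209d* had ratios of 1.43 and 2.84, and *Cd209g* of 1.31 and 2.63. *Rcn3*, a calcium-binding protein of the endoplasmic reticulum, was highest of all by this mean, at 326 against 81.8 CPM on CD and 243 against 42.6 CPM on HFD. *Ednrb*, a receptor of the vessel-constricting peptide endothelin, had ratios of 1.68 and 2.46. The chemokine *Ccl8* had 1.21 and 2.92, the epithelial cytokine gene *Tslp* 1.53 and 2.51, the monoamine oxidase *Maoa* 1.42 and 2.60, and the receptor gene *Gprc5c* 1.46 and 2.54. Ratios were larger on HFD for each of these genes. There the other kept cells included 25 cells that met the rule but for *Timd4* (Timd4+ counterparts), against 263 on CD.

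Among the 190 genes that were 2-fold lower in both libraries, the 10 lowest means included 4 haemoglobin genes. *Hba-a1* had 41 UMIs in CD members against 2825 in the other CD cells, and *Hbb-bs* had 111 against 4529. *Hba-a2* and *Hbb-bt* had ratios of -4.07 and -4.42 on CD, but *Hba-a2* stood at 0.23 there among cells of 2000 to 5000 UMIs. The red blood cell markers summed to 1112 CPM in the other CD cells and 1023 CPM in the other HFD cells, against 68.0 and 29.1 CPM in members, but 27.8% and 7.84% of the other cells had such a UMI, close to the 23.5% and 7.66% of members. A single other cell held 74.1% of the *Hba-a1* UMIs on CD and 67.8% on HFD, and without the richest cells the ratios were -2.62 and -3.80. Under the limits of the study on genes per cell and UMIs per gene, the HFD ratios of *Hba-a1*, *Hba-a2* and *Hbb-bt* turned to 0.87, 0.87 and 2.13, so the low level of these genes in members rested on few other cells. *Ccl17*, a chemokine of dendritic cells, had 4 UMIs in CD members against 228 (its HFD ratio was 1.96 when *Timd4* was ignored), *Napsa*, an aspartic protease, 7 against 714, and *Dcstamp*, a gene of cell fusion, 1 against 324 (ratio -6.73, -12.04 to -4.24) and 5 against 278 on HFD (-2.37). *Slpi*, a protease inhibitor, had 5 against 203 on CD and 5 against 1259 on HFD, while *Akr1c18* had 3 against 418 and 5 against 517. *Sh2d1b1* had 3 against 245 on CD (ratio -4.74, -7.03 to -3.18) and 2 against 260 on HFD (-3.59, -6.65 to -1.73).

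Of the 18 tested genes of the resident perivascular list, all 18 were higher in members in both libraries, 14 of them 2-fold or more on CD and 17 on HFD, with medians of 1.21 and 1.81. The list was drawn from genes known to mark these cells, so its direction is not independent evidence. *Ltc4s*, which makes leukotriene C4, stood at 1.47 and 2.39, *Gas6*, a bridge between phosphatidylserine and its receptors, at 1.36 and 2.20, and *Fcgrt*, the recycling receptor of antibodies, at 1.35 and 2.10. *Cd163*, the receptor of haemoglobin bound to haptoglobin, had ratios of 1.17 and 1.98, and *Mrc1*, which codes for the mannose receptor CD206, stood at 1343 against 673 CPM on CD and at 1222 against 465 CPM on HFD. The transcription factor *Maf* had ratios of 1.22 and 1.86. Among cells of 2000 to 5000 UMIs the median of this list was 0.36 on CD and 1.29 on HFD, and *Fcna* was at 0.78 and 2.24.

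Scavenger and endocytic genes followed, with 10 of 28 genes 2-fold higher on CD and 16 of 26 on HFD (medians 0.87 and 1.16). *Stab1*, a scavenger receptor of modified lipoproteins and dying cells, stood at 1.47 and 1.92, *Colec12* at 1.11 and 1.98, and *Cd36*, which takes up fatty acids and oxidised lipoproteins, at 0.93 and 1.16. The complement component *C4b* had 1.32 and 1.77, in a complement list with 4 of 14 and 5 of 11 genes 2-fold higher. Lysosomal genes were only slightly higher, with 1 and 3 of 25 past 2-fold and medians of 0.50 and 0.40. *Abca1*, which exports cholesterol to lipoproteins, had ratios of 1.14 and 1.84, and *Apoe*, which carries it, 1.30 and 1.46. Of the iron and haem list, 3 and 5 of 12 genes were 2-fold higher, among them the iron exporter *Slc40a1* (1.18 and 2.41) and the transferrin receptor *Tfrc* (1.21 and 1.73).

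**Figure D1:**
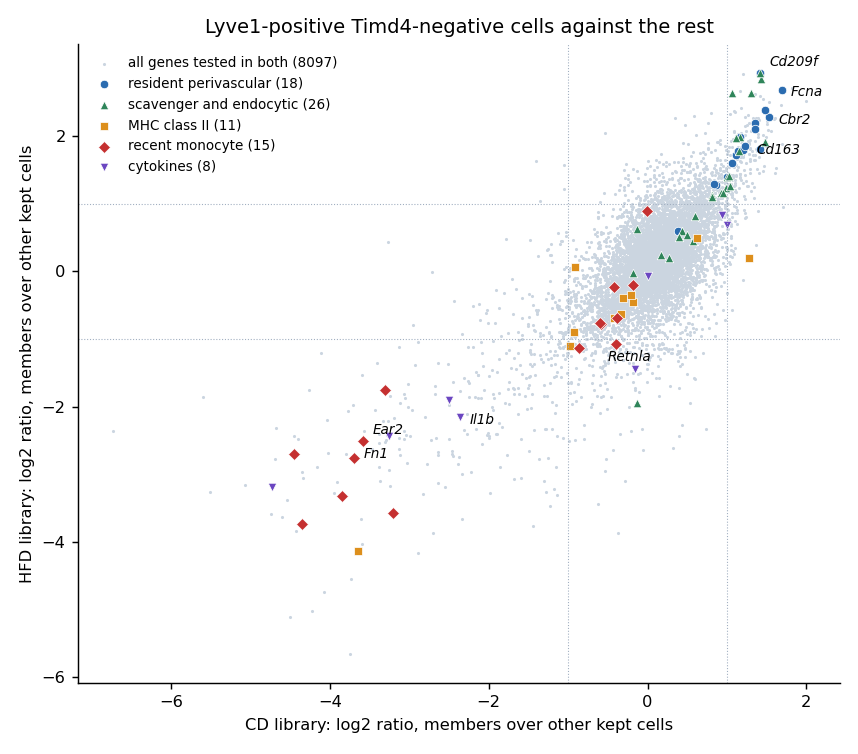
Each point is a gene, with its log2 ratio of CPM in members over the other kept cells on CD (x axis) and on HFD (y axis). Grey points are all 8097 genes tested in both libraries and coloured points are 5 gene lists; dotted lines mark 2-fold. Resident genes lie at the upper right, with *Fcna* at 1.69 and 2.69, and *Il1b*, *Ear2* and *Fn1* at the lower left.

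Genes of recently arrived monocytes were lower in members, 7 of 15 by 2-fold or more on CD (median -0.86) and 10 of 17 on HFD (median -1.13). *Ear2*, a ribonuclease, had ratios of -3.58 and -2.51, and *Fn1*, which codes for fibronectin, of -3.70 and -2.77. The limit on *Lyz1* UMIs kept out cells rich in this program, so these ratios are bound to the rule. *Il1b* stood at 137 CPM in CD members against 702 CPM in the others, and at 202 against 899 CPM on HFD. In the lipid-associated list, known from macrophages of obese adipose tissue, 6 of 9 genes were 2-fold lower on CD and 3 of 8 on HFD. *Lpl*, which frees fatty acids from lipoproteins, had ratios of -1.85 and -0.96 and *Lgals3*, a galectin, of -1.47 and -1.08, whereas *Trem2*, the lipid receptor that names these cells, was at 0.84 and 0.24. Genes of cholesterol synthesis were lower as a list on CD, 8 of 12 by 2-fold, and less clearly on HFD, 3 of 10.

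Genes of MHC class II, which present antigen to T cells, were slightly lower in members, with list medians of -0.34 and -0.45. The list also holds *Cd40* and *Cd80*, which are not MHC class II genes. *H2-Aa* stood at 7251 CPM in CD members against 8248 CPM, and at 6292 against 8600 CPM on HFD. *H2-DMa*, which loads peptides, had ratios of -0.98 and -1.10. *H2-Aa* was thus abundant in members, while 9 of 11 tested genes of the list were below 0 on CD and 8 of 11 on HFD. Interferon-stimulated genes had medians of 0.60 and 0.58, eicosanoid genes of 0.45 and 0.60, efferocytosis genes of 0.65 and 0.93 and cytokines of -1.26 and -1.68. Of 8 tested cytokines, 5 were below 0 on CD and 6 on HFD, while 1 was 2-fold higher on CD. Glycolysis and hypoxia genes were at -0.64 and -0.56, growth factors at 0.41 and 0.30, chemokines at 0.02 and 0.59, immediate early genes at 0.28 and 0.43, heat shock genes at -0.01 and 0.50, and fatty acid genes at 0.06 and 0.18.

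The share of cells with a UMI was compared at a fixed depth of 1000 UMIs. *Fcna* was found in 50.4% of 752 CD members (46.8 to 54.0%; 78.4% before thinning) and in 23.2% of the other kept CD cells. In the HFD library it was found in 54.0% of 248 members and in 15.1% of the others. Thinning left out 6 CD and 13 HFD members with fewer UMIs. The shares with *Fcna* in cells with 10 or more *Lyz1* UMIs were 10.3% and 4.9%. The median depths of those cells were 8205 and 6609 UMIs before thinning. Those cells may carry the gene themselves, and no background share was measured. *Cd209f* was found in 58.1% of CD and 41.1% of HFD members, against 33.9% of the other CD and 9.9% of the other HFD cells. *Ccr2*, the receptor that brings monocytes into tissue, was less frequent in members, with 19.4% and 19.0% against 35.6% and 39.0% in the others.

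Members were next set against the cells that differed from them by the rule in *Timd4* alone. In the CD library 62 of 6675 genes were 2-fold apart between members and these Timd4+ counterparts (0.929%), and on HFD 162 of 2104 (7.7%), where the counterparts were 25 cells. With the rule at 1000 UMIs per cell, 72 of 1382 CD genes (5.21%) and 151 of 380 HFD genes (39.7%) were 2-fold apart. At that depth a *Timd4* UMI was left in 105 of 262 CD and 7 of 24 HFD counterparts. These shares and the ratios at that depth thus rest on few counterparts, and the part of counting error in them was not tested. *Ccr2* was at 347 CPM in CD members (326 to 368) and 161 CPM in the counterparts (138 to 186), a log2 ratio of 1.11. In the HFD library the order of these levels was not the same, with 291 CPM against 370 CPM. The ratio was -0.34, and its interval (-0.87 to 0.23) spanned 0. By share of cells with a *Ccr2* UMI at 1000 UMIs, HFD members stood above the counterparts. These shares were 19.0% (14.3 to 24.4%) and 12.5% of 24 cells (2.66 to 32.4%). *Cd209b*, a lectin known from macrophages that clear blood-borne sugars, was lower in members in both libraries, with 231 against 486 CPM and 173 against 370 CPM. *Colec12*, a scavenger lectin, had a ratio of -1.03 on CD, which was 0.59 with the rule at 1000 UMIs per cell, and *Cd209f* of -0.47 and -0.88. *Fcna* was at 909 against 1093 CPM on CD and at 1057 against 1707 CPM on HFD, below the counterparts in both.

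The MHC class II genes stood above the Timd4+ counterparts. *H2-Aa* was at 7251 CPM in CD members against 4949 CPM, and at 6292 against 4664 CPM on HFD. *H2-Ab1* had ratios of 0.59 and 0.80, *H2-Eb1* of 0.63 and 0.91, and the invariant chain *Cd74* of 0.49 and 0.31. Of the list, 8 of 10 tested genes were above 0 on CD (median 0.38) and 7 of 7 on HFD (median 0.43). Resident perivascular genes were slightly below the counterparts on CD, 17 of 18 below 0 with a median of -0.14, while the HFD median was 0.05. With 1 *Timd4* UMI in most counterparts, this boundary depends on the depth of a cell.

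A further class had *Folr2* but no UMI of *Lyve1*, *Ccr2* or *Timd4* and fewer than 10 *Lyz1* UMIs (255 CD and 265 HFD cells, here Folr2-only cells). These cells were shallower than members, with medians of 2658 against 3675 UMIs on CD and 1559 against 2261 on HFD. Members differed from it by 2-fold in 161 of 6475 CD genes (2.49%) and in 43 of 3132 HFD genes (1.37%). With the rule at 1000 UMIs per cell the shares were 0.565% and 2.03%. *Fcna* stood at 909 against 403 CPM on CD and at 1057 against 561 CPM on HFD. *Cd209f*, at 0.87 and 1.01, and *Ltc4s*, at 0.92 and 0.86, were also higher in members in both libraries. *Cd163* was level, at -0.11 and -0.03, and *Gas6* differed little, at 759 against 720 CPM and 504 against 491 CPM. Of the resident perivascular list, 14 of 18 tested genes were higher in members in each library, 1 of them by 2-fold. The list medians were 0.14 and 0.19. The resident genes of Folr2-only cells were thus not uniformly lower.

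Genes of the lipid-associated list were lower in members than in Folr2-only cells, whereas the medians of the heat shock list were -0.02 and 0.04. *Gdf15*, a stress-induced growth factor, had ratios of -2.28 and -1.88, *Vcam1*, an adhesion molecule, of -2.17 and -1.34, and *Id2*, a repressor of transcription, of -1.93 and -1.10. The fatty acid binding gene *Fabp5* stood at -2.54 and -3.32, and *Lpl* at -1.20 and -0.99, while *Lgals3* was at -0.96 on CD. Of the lipid-associated list, 7 of 7 tested genes were lower in CD members (median -0.96) and 5 of 5 in HFD members, 3 of each past 2-fold. *Plin2*, which coats lipid droplets, was at 376 against 543 CPM on CD and at 1255 against 1709 CPM on HFD. The stromal gene *Dcn*, with *Mgp* and *Sparc*, which were named after their values were seen, were also far lower in CD members, at -6.72, -6.27 and -4.12. Among cells of 2000 to 5000 UMIs *Dcn* and *Mgp* stood at 0.33 and 0.48, and the part of these genes' cells in the other ratios was not tested.

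**Figure D2:**
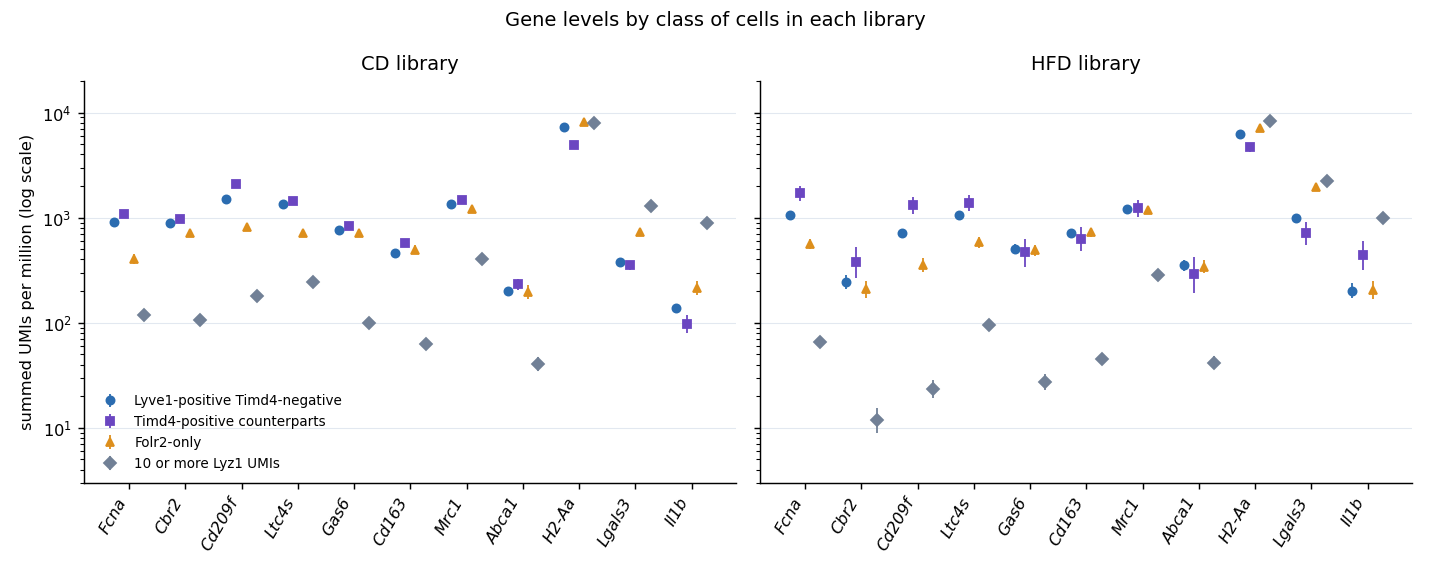
Points give the level of 11 genes as summed UMIs in CPM on a log axis in 4 classes of cells, for the CD library (left) and the HFD library (right); bars are 95% Poisson intervals. On CD, *Cd209f* was at 1504 CPM in members, 2077 CPM in Timd4+ counterparts and 180 CPM in cells with 10 or more *Lyz1* UMIs, which were highest in *Lgals3* and *Il1b*.

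Between the libraries, HFD members were higher than CD members in *Plin2*, *Hspa1a* and *Hspa1b*, and lower in *Cbr2*, *Ccl8*, *Cd209d* and *Cd209f*. Of 6416 genes tested, 119 were 2-fold or more higher in HFD members (1.85%) and 161 lower (2.51%), with a median ratio of all genes of 0.04. In the other kept cells 112 of 9548 genes were higher (1.17%) and 262 lower (2.74%). With the rule applied at 1000 UMIs per cell, where 1621 genes had enough UMIs, 33 were higher in HFD members (2.04%) and 59 lower (3.64%). All of these are differences between 2 pooled libraries, which diet, mice and handling of the samples may all have set and which cannot be told apart.

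*Plin2* (ENSMUSG00000028494, chromosome 4, 86648386 to 86670060) stood at 376 CPM in CD members (355 to 399) and at 1255 CPM in HFD members (1173 to 1342), a log2 ratio of 1.74 (1.61 to 1.87). It was at 341 and 1011 CPM in the other kept cells, a ratio of 1.57, so the difference was found across the library. At 1000 UMIs per cell 32.3% of CD and 67.3% of HFD members had a *Plin2* UMI. *Abca1* was at 200 CPM (184 to 217) and 351 CPM (308 to 398) in members, a ratio of 0.81, against 0.11 in the other kept cells, a gap of 0.70 (0.44 to 0.96). The other kept cells included 263 Timd4+ counterparts on CD and 25 on HFD, and 555 and 672 cells with 10 or more *Lyz1* UMIs. The part of this make-up in the gap was not tested. *Abca1* in the Folr2-only cells was nearly the same as in members, at 196 CPM on CD and 343 CPM on HFD. *Cd36* had a ratio of 0.71 in members and 0.48 in the others.

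The other lipid genes gave a mixed picture. *Lpl* had a ratio of 0.80 in members and -0.09 in the others, and *Fabp4*, a carrier of fatty acids, 0.64 and -0.44. *Lgals3* had 1.38 in members, where the richest HFD cell held 12.4% of its UMIs, 1.20 without that cell and 0.79 with the rule at 1000 UMIs per cell. *Trem2* was lower in HFD members, at -1.39 with 33 HFD UMIs, of which 1 cell held 21.2%, and at -1.71 without it. *Abcg1*, a further cholesterol exporter, rested on 36 CD and 19 HFD UMIs (1.22). *Apoe* stood at 0.09, and the 5 tested genes of cholesterol synthesis and uptake were above 0 with a median of 0.48, which was 0.04 with the rule at 1000 UMIs per cell.

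Heat shock genes code for chaperones that hold and refold proteins. Of 13 tested, 12 were above 0 in HFD members, 2 of them by 2-fold, with a median of 0.50 against 0.21 in the other kept cells. *Hspa1a* (chromosome 17, 34969190 to 34972156, minus strand) was at 519 CPM in CD members (494 to 545) and 1254 CPM in HFD members (1171 to 1340), and at 309 and 529 CPM in the other cells. Its neighbour *Hspa1b* (34956436 to 34959238) had 161 CD and 136 HFD UMIs in members, a log2 ratio of 1.90 (1.56 to 2.24). *Hspd1* had 0.99, *Hsp90aa1* 0.64 and *Hspa8* 0.44, while *Dnajb1* was at 0.08. The immediate early list, which like heat shock genes responds to the digestion of tissue, had a median of 0.10 in members, with *Fos* at 0.11 and *Jun* at 0.18.

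*Hspa1a* and *Hspa1b* are near-identical copies, and reads that fit both cannot be placed, so their separate levels are uncertain. Their promoters are shown because these genes had the highest ratios of the tested list, and 296 of 300 bases (98.67%) are the same. Capitals mark GAANNTTC, the core of the heat shock element to which heat shock factors bind, at position -104 from the gene start in both. It was searched on both strands, and 7.86% of 32851 promoters of this length hold it. *Hsph1* holds 1 such site, which lies in both of its overlapping listed promoters, and the listed promoters of *Dnajb1* hold none. The sequences are RefSeq's on GRCm38.p6, 5′ to 3′ on the strand of the gene.
Hspa1a (chr17:34972107-34972406, minus strand): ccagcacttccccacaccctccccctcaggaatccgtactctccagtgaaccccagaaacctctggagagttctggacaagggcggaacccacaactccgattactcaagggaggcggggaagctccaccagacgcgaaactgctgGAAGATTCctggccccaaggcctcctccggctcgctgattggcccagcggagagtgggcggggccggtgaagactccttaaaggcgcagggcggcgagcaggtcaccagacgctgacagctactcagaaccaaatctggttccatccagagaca
Hspa1b (chr17:34959189-34959488, minus strand): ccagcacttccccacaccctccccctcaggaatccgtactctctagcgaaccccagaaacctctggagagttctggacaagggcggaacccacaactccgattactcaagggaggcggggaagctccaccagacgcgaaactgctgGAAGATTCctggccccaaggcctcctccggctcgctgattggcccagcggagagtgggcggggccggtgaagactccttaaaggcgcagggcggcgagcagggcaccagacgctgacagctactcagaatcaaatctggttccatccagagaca

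**Figure D3:**
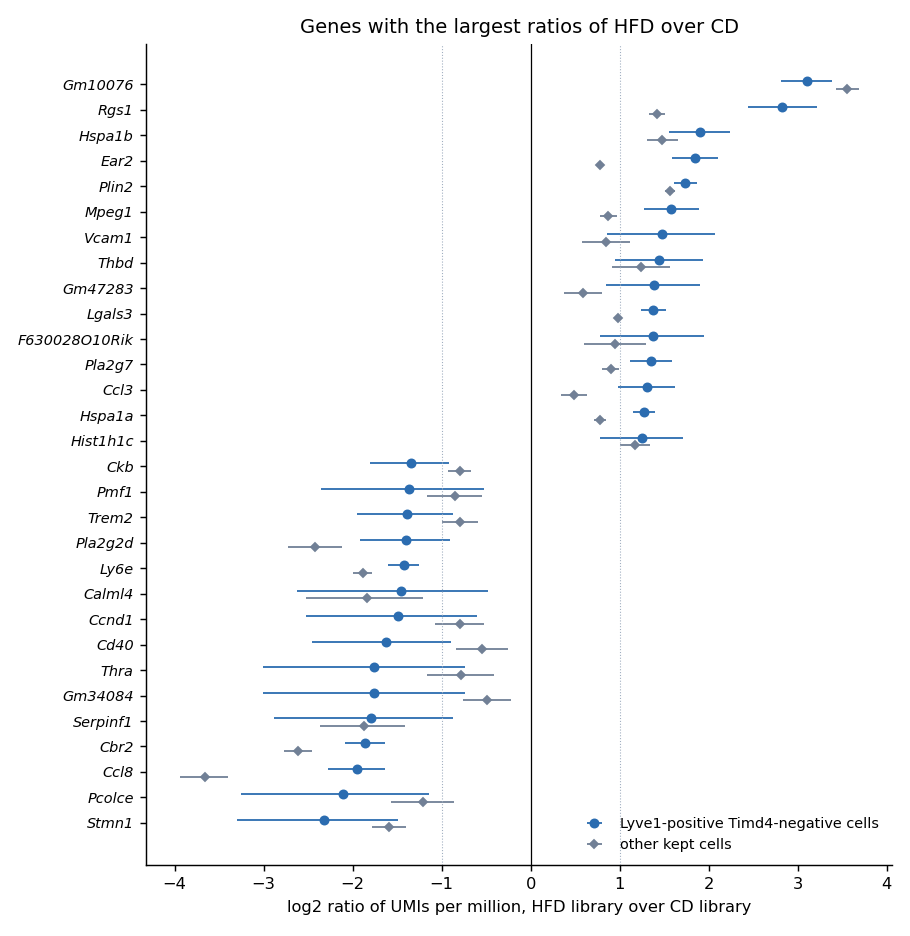
The 15 highest and 15 lowest log2 ratios of HFD over CD in members by the naming rule (blue circles), with the same ratio in the other kept cells (grey diamonds); bars are 95% intervals for counting error and dotted lines mark 2-fold. *Plin2* lies at 1.74 and 1.57, while *Ccl8* lies at -1.95 in members and -3.66 in the others.

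Apart from these, the highest ratios of HFD over CD among 37 genes that met the naming rule belonged to genes of varied function. *Gm10076*, annotated as a long non-coding RNA, had 155 CD and 301 HFD UMIs (3.10, and 3.56 in the others). *Rgs1*, a regulator of chemokine receptor signals, was at 2.83, with 26.5% of its HFD UMIs in 1 cell and 2.46 without that cell, and *Ear2* was at 1.85 with 26.2% in 1 cell and 1.53 without it. Among cells of 2000 to 5000 UMIs these ratios were 1.70 and 0.50. *Mpeg1*, a pore-forming protein of phagosomes, stood at 71.6 CPM in CD and 214 CPM in HFD members, a ratio of 1.58 against 0.87 in the others. *Pla2g7*, which cleaves oxidised phospholipids, had 1.35 against 0.90, *Thbd*, the thrombin receptor thrombomodulin, 1.45, *Vcam1* 1.47 with 62 and 39 UMIs, and the linker histone gene *Hist1h1c* 1.25. *Gm47283*, at 1.38, and *F630028O10Rik*, at 1.37, completed the list.

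Of 13 tested chemokines, 1 was 2-fold higher and 1 was 2-fold lower in HFD members, and 9 were above 0, with a median of 0.53, which was 0.10 with the rule at 1000 UMIs per cell. In the other kept cells the median was -0.15. *Ccl3* had a ratio of 1.30, *Cxcl1* of 0.94, *Ccl9* of 0.87, *Cxcl2* of 0.86 and *Ccl6* of 0.74. *Ccl2* was at -0.13 and *Ccl7* at -0.44, and *Ccl8*, the lowest, was the 1 past 2-fold downwards. Among transcription factors 20 of 27 were above 0 (median 0.36), with *Cebpb* at 1.04 in members and 1.04 in the others and *Zeb2* at 0.70. *Id2* and *Id3* were at 1.52 and 2.10 on 41 and 32 HFD UMIs, *Id2* at -1.19 with the rule at 1000 UMIs per cell, and *Maf* was level at -0.05.

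*Ccl8* and *Cbr2* were the abundant genes that were lowest in HFD members. *Ccl8*, a chemokine of resident macrophages, had 1484 CD and 87 HFD UMIs, 490 CPM (465 to 515) and 127 CPM (101 to 156), a ratio of -1.95, and in the other kept cells of -3.66. With the rule at 1000 UMIs per cell the ratio in members was -1.18. *Cbr2* stood at 891 CPM (858 to 925) and 246 CPM (210 to 286), a ratio of -1.86 (-2.09 to -1.63), with -2.61 in the others. *Cbr2* was low in every HFD class, at 381 CPM in Timd4+ counterparts and 209 CPM in Folr2-only cells, against 977 and 710 CPM on CD. *Ly6e*, a surface protein induced by interferons, was at 1151 and 430 CPM (-1.42), and *Pla2g2d*, a secreted phospholipase, had 430 and 37 UMIs (-1.40). *Cd40*, a receptor for T cell help, had 218 and 16 UMIs, a ratio of -1.63 against -0.55 in the others.

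The other named genes of this end rested on few HFD UMIs. *Stmn1*, which regulates microtubules in dividing cells, had 265 CD UMIs, of which 1 cell held 16.6%, and 12 HFD UMIs (-2.32). Markers of cycling cells moved with it, at 64.0 CPM in CD and 11.7 CPM in HFD members, found in 7.12% and 3.07% of members, and their part in this ratio was not tested. *Pcolce*, an enhancer of collagen processing, had 171 and 9 UMIs (-2.11). *Serpinf1* had a ratio of -1.79, *Thra*, a thyroid hormone receptor, of -1.76, *Ccnd1*, which codes for cyclin D1, of -1.49, *Calml4* of -1.46, *Pmf1* of -1.37 and the creatine kinase *Ckb* of -1.34. *Gm34084* was at -1.76, beside -0.49 in the other kept cells. At the alternative nearest to 0, *Pcolce* was at -0.92, *Ccnd1* at -0.98, *Calml4* at -0.60, *Pla2g2d* at -0.98, *Vcam1* at 0.94 and *Ccl3* at 0.79, all within 2-fold, and the other named genes of both ends but *Ear2* and *Lgals3* stayed past 2-fold.

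Within the resident program the genes did not move as a block. The rule genes *Lyve1*, at 790 and 778 CPM, and *Folr2*, at 2279 and 1328 CPM, are given as a description. *Fcna* was slightly higher in HFD members (0.22, 0.10 to 0.34) and *Cd163* clearly so, at 461 and 714 CPM (0.63), while *Cd209f* was at -1.07, *Cd209d* at -1.12, *Gas6* at -0.59, *F13a1* at -0.62 and *Mrc1* at -0.14. Of 18 tested resident genes 13 were below 0 and 2 were 2-fold lower, with a median of -0.28, against 17 below 0, 7 of them 2-fold lower, and a median of -0.83 in the other kept cells. The other kept cells included 263 Timd4+ counterparts on CD and 25 on HFD, and the part of this make-up in their median was not tested. Of 10 tested genes of the MHC class II list, 1 was 2-fold higher and 1 was 2-fold lower, with a median of -0.14. The higher was *Cd80*, at 1.07 on 20 HFD UMIs and at 0.14 with the rule at 1000 UMIs per cell. The lower was *Cd40*, and neither is itself an MHC class II gene. *H2-Aa* was at -0.20 and *Cd74* at 0.00.

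The medians of the remaining lists lay at varied distances from that of all genes (0.04). Lysosomal genes were at -0.11 in HFD members over CD members, with *Cd63* at 0.63 and *Ctsd* at 0.58. Complement was at -0.10, scavenger genes at -0.15, iron and haem genes at 0.04 with the ferritin receptor *Ncoa4* at -1.21, interferon-stimulated genes at -0.03 with *Ifi27l2a* at -0.81, and MHC class I genes at -0.08. The NRF2 and metallothionein list had 7 of 7 tested genes above 0 with a median of 0.14, and *Mt2* at 0.67. Efferocytosis genes were at -0.29 (8 of 10 below 0) and eicosanoid genes at -0.34 (6 of 7 below 0). Growth factors were at -0.26 and glycolysis and hypoxia genes at -0.19. Of recent monocyte genes (median -0.05), *S100a4* was at -1.31, and of the lipid-associated list (median 0.72) 2 of 6 were 2-fold higher and 2 lower. Cytokines had a median of 0.19, cholesterol efflux 0.12 and fatty acid genes 0.14.

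**Figure D4:**
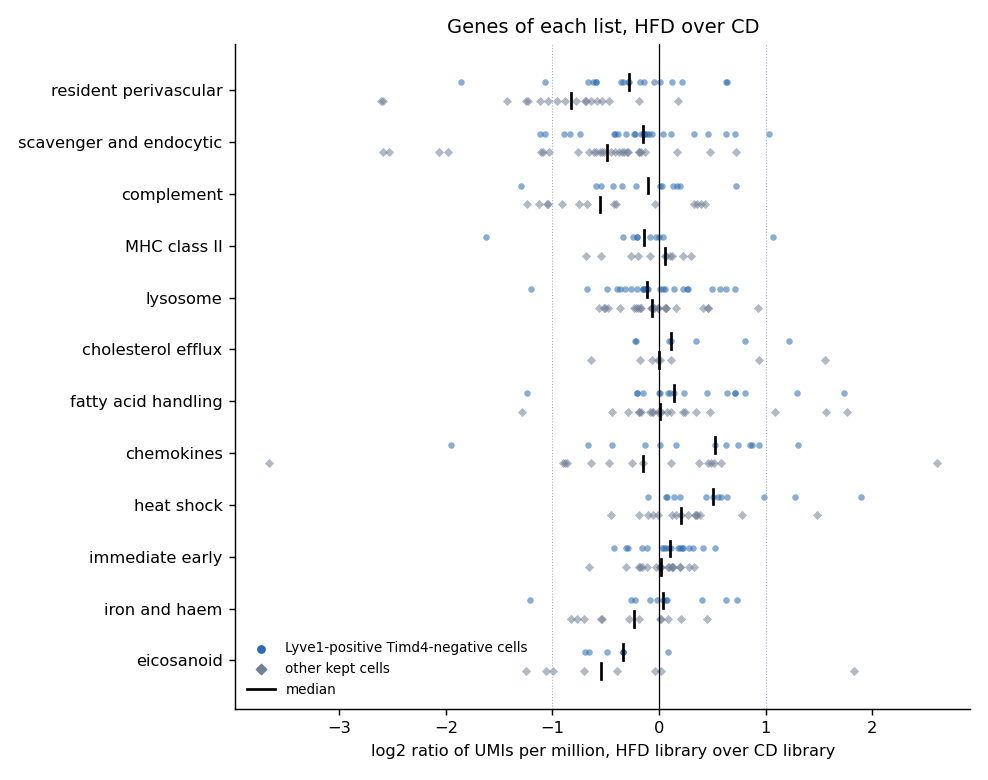
Each point is a gene of a list, with its log2 ratio of CPM in the HFD over the CD library in members (blue circles) and in the other kept cells (grey diamonds); black bars are list medians and dotted lines mark 2-fold. Heat shock genes have medians of 0.50 and 0.21, and resident perivascular genes of -0.28 and -0.83.

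Members were not uniform. When they were ordered by the share of their UMIs from the MHC class II genes *H2-Aa*, *H2-Ab1*, *H2-Eb1* and *Cd74* and cut into 3 groups of nearly equal size, this share had a median of 0.760% in the lowest and 5.69% in the highest CD group, and of 0.753% and 5.83% in the HFD groups. These groups are ranges of a score and not cell types. Between the highest and the lowest group, 152 of 4467 CD genes (3.4%) and 102 of 1217 HFD genes (8.38%) were 2-fold apart, the 4 score genes left out. The groups differed in depth, with medians of 3076 and 4713 UMIs on CD and 1696 and 2773 on HFD, and in mitochondrial share, with medians of 6.08% and 3.64%, and 6.11% and 3.36%. The part of depth and mitochondrial share in these differences was not tested.

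Resident genes ran against MHC class II in both libraries. *Fcna* went from 1402 CPM in the lowest to 582 CPM in the highest CD group, and from 1654 to 594 CPM on HFD. *Cd163* went from 572 to 357 CPM and from 991 to 498 CPM, and *Mrc1* from 1714 to 1054 CPM and from 1695 to 901 CPM. All 18 tested resident genes were lower in the highest group in each library, with medians of -0.38 and -0.65 against -0.11 and -0.03 over all genes. *C4b* had ratios of -1.60 and -1.73 and *Ednrb* of -1.18 and -1.54. In the other direction, *Ccr2* went from 154 to 503 CPM on CD and from 64.5 to 420 CPM on HFD, and *Il1b* had ratios of 1.60 and 1.43. *H2-DMa*, outside the score, had ratios of 2.10 and 2.57. The recent monocyte list as a whole did not follow *Ccr2* on CD, with 3 of 9 genes above 0 and a median of -0.11, while on HFD 8 of 9 were above 0 with a median of 0.70.

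**Figure D5:**
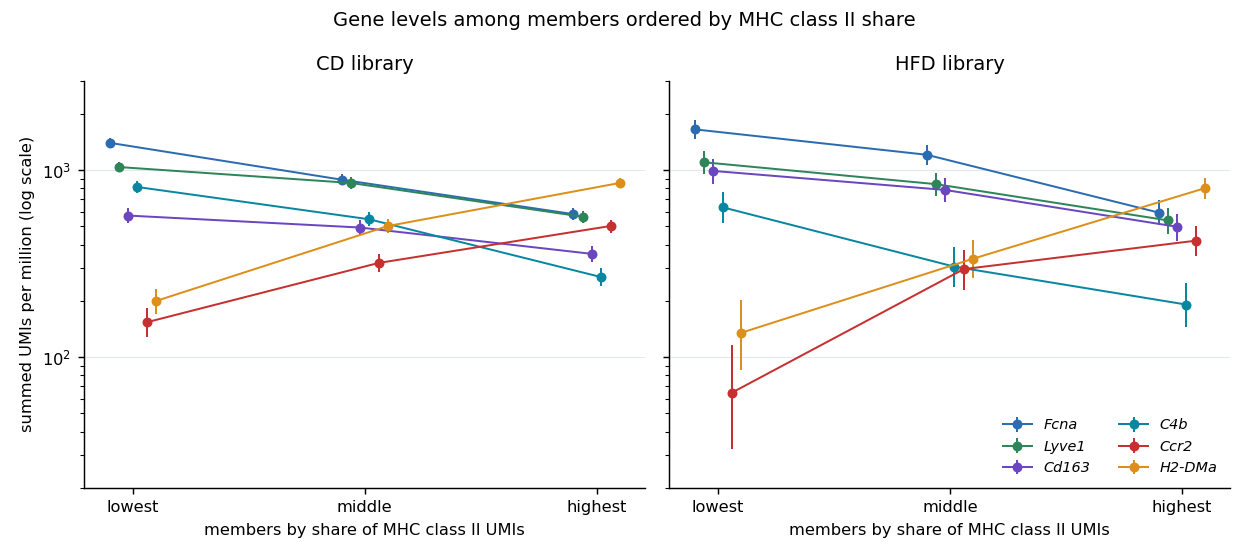
Levels of 6 genes as summed UMIs in CPM on a log axis in members with the lowest, middle and highest share of MHC class II UMIs, for the CD library (left) and the HFD library (right); bars are 95% Poisson intervals. *Fcna* falls from 1402 to 582 CPM and *Ccr2* climbs from 154 to 503 CPM across the CD groups.

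A split by *Ccr2* gave a related picture. In the CD library 299 members had a *Ccr2* UMI and 459 had none, and on HFD 74 and 187, with 94 of 5706 CD genes (1.65%) and 65 of 1855 HFD genes (3.5%) 2-fold apart. Members with *Ccr2* were deeper, with medians of 4794 against 3160 UMIs on CD and 3083.5 against 1952 on HFD, and their median mitochondrial share was lower, with 4.404% against 5.48% and 3.47% against 5.19%. The part of depth and mitochondrial share in this split was not tested. *Slc40a1* stood at 21.7 CPM with *Ccr2* and 121 CPM without it in CD members, and at 23.3 and 140 CPM in HFD members. *C4b* had ratios of -1.33 and -1.81, and *Ccl8* of -1.62 and -1.77. *Il1b* was higher in members with *Ccr2*, at 193 against 84.2 CPM and 342 against 119 CPM, and *Cxcl2* had ratios of 1.20 and 0.73. *Fcna* was only slightly lower, at -0.27 and -0.37. Of 18 tested resident genes, 18 were lower with *Ccr2* on CD and 17 on HFD. The MHC class II list had medians of 0.59 and 0.69. Of 8 tested recent monocyte genes, 8 were above 0 on CD and 7 on HFD.

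Levels along the number of *Lyve1* UMIs, a value that the rule used, are given as a description. From members with 1 to members with 3 or more, *Fcna* went from 464 to 1200 CPM on CD and from 888 to 1517 CPM on HFD. *H2-Aa* went the other way, from 8682 to 6358 CPM and from 6760 to 4815 CPM. The groups differed in depth, with medians of 3178 and 4176 UMIs on CD and of 1952 and 2861 on HFD. With groups formed by 0 and by 2 or more *Lyve1* UMIs in cells thinned to 1000 UMIs, *Fcna* went from 729 to 1298 CPM and from 764 to 1262 CPM. Depth before thinning then ran the other way, with medians of 4288 and 3255 UMIs on CD and of 2773 and 2134 on HFD, and mitochondrial shares were 4.64% and 5.42%, and 3.86% and 4.93%. The part of depth and mitochondrial share in these levels was not tested.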

How the data were processed

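The UMI counts were deposited by the authors as 1 matrix of genes by barcodes per library, per the labels with Cell Ranger 3.0.2, the mm10 build and genes of Ensembl 93, and were not normalized. The limits of 200 to 3500 genes and 10% mitochondrial UMIs kept 2364 CD and 2021 HFD cells, where the limits stated by the study, as applied here, keep 2364 and 1993, the latter not exactly the count that the study gives. Counts were summed per class of cells and library and divided by the summed total (CPM). Exact Poisson intervals were given for levels, exact conditional binomial intervals for ratios and Clopper-Pearson intervals for shares, with Newcombe's for differences of shares. A gene was tested with at least 50 UMIs over both groups of a comparison, in the sense that its ratio was set against 2-fold. With 1 library per diet there were no p-values.

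Named genes were the markers and rule genes, members of the 23 lists, the 10 highest and 10 lowest mean log2 ratios of members over the other kept cells among genes 2-fold apart in 1 direction in both libraries, and, for diet in members, the 15 genes at each end among those 2-fold apart with 1 sign under every alternative, both of the latter with at least 100 UMIs. Members and lists were chosen with earlier results of these data known. *Clec7a* was not analysed here. Scrublet marked 0 CD and 2 HFD barcodes, which is too few for it to have worked, so doublets were not removed, and leaving out the highest scores was an alternative. The code was tested on simulated data. Python 3.11.15, numpy 2.4.6, scipy 1.17.1, pandas 2.3.3 and scanpy 1.11.5 were used.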

Additional observations from a re-analysis of the deposited data

Results flagged for a closer look

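Outside the cells analysed, 298 of the 2095 CD barcodes that the quality limits removed (14.2%, 12.8 to 15.8%) and 43 of the 1142 removed HFD barcodes (3.77%, 2.74 to 5.04%) met the UMI rule for Lyve1+Timd4- ATMs. They were noted because no comparison used them. The same rule picked them, so their *Lyve1* and *Folr2* UMIs are bound to it. No background share was measured for such barcodes, so whether they were cells of this class was not tested. Their medians were 1515.5 UMIs and 13.9% mitochondrial UMIs in the CD library, and 955 UMIs and 12.4% in the HFD library.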

How the results depend on the processing

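No paired analysis was possible because each diet had 1 library. The share of members in kept cells was lower in the HFD library under every alternative run. The CD share, HFD share and difference were 26.2%, 10.8% and -15.4 points with at most 5% mitochondrial UMIs, 21.8%, 6.33% and -15.5 with at least 2 *Lyve1* UMIs, 20.1%, 8.04% and -12.1 with the rule at 1000 UMIs per cell, and 44.7%, 21.6% and -23.1 in cells of 2000 to 5000 UMIs. With *Timd4* ignored the CD share was 43.2% and the difference -29.0 points.

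Counts of genes past 2-fold changed with the cells and with the number of genes that had enough UMIs to be tested. With the rule at 1000 UMIs per cell, 33 genes were higher and 59 lower of 1621 in HFD than in CD members, which are larger shares than before (2.04% and 3.64%, from 1.85% and 2.51%). At that depth 77 were higher and 211 lower of 4894 in members than in the other CD cells, 284 were higher and 476 lower of 4083 than in the other HFD cells, which turned the balance of 702 higher to 515 lower, and 15 of 2654 CD and 21 of 1032 HFD genes were apart from Folr2-only cells. In cells of 2000 to 5000 UMIs the counts were 57 of 4558 higher between diets, 15 higher and 101 lower of 6419 against the other CD cells, 161 higher and 226 lower of 4488 against the other HFD cells, and 83 of 4585 and 25 of 1646 apart from Folr2-only cells. With at least 200 UMIs they were 18 and 24 of 2357 between diets, 173 and 215 of 5620 against the other CD cells, 249 and 209 of 4268 against the other HFD cells, 4 of 2570 and 4 of 520 against Timd4+ counterparts, and 15 of 2381 and 4 of 786 against Folr2-only cells. With each cell weighted equally, 118 genes were higher and 414 lower in members than in the other CD cells. Against the other HFD cells 352 were higher and 588 lower, which also turned the HFD balance, and 95 CD genes were apart from the counterparts. The HFD balance turned as well with ratios centred on the median gene (471 higher, 659 lower). Without cells that carried markers of other types, 69 of 4912 genes were higher in HFD members and 101 of 4746 CD genes were apart from Folr2-only cells. With *Timd4* ignored, 608 genes were higher than in the other CD cells. With at least 2 *Lyve1* UMIs, 764 genes were higher and 779 lower than in the other HFD cells. With that limit 72 of 1169 were apart from the HFD counterparts, where a limit of 5% mitochondrial UMIs gave 105 of 1405. An alternative chosen after seeing the data, leaving out the cell with the most UMIs of each gene, gave 374 there, among 25 counterparts. It also gave 543 genes higher and 743 lower in members than in the other HFD cells. The cause of these shifts was not tested.

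Single ratios turned their sign in 9 cases. With the rule at 1000 UMIs per cell, *Id2* between diets was -1.19 and *Colec12* against the CD counterparts 0.59. In cells of 2000 to 5000 UMIs, *Dcn* and *Mgp* against CD Folr2-only cells were 0.33 and 0.48, and *Hba-a2* against the other CD cells 0.23. Under the limits of the study, *Hba-a1*, *Hba-a2* and *Hbb-bt* against the other HFD cells were 0.87, 0.87 and 2.13, and with *Timd4* ignored *Ccl17* there was 1.96. Of the other single ratios and list medians under an alternative, 3017 moved by less than counting error and 743 by more. The depth settings moved most single ratios, 137 with the rule at 1000 UMIs per cell, where 53 stayed within counting error, and 107 in cells of 2000 to 5000 UMIs, where 91 did. Ignoring *Timd4* was not run against Timd4+ counterparts, which it would absorb. Depth limits all low genes here, since 1 UMI in a member of median depth is 272 CPM in the CD and 442 CPM in the HFD library.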
